A study of Bos taurus with 3 samples.

Results

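The genes described here form a set named for the contractile apparatus of smooth muscle, and some, such as CNN2 and TPM4, are typical of non-muscle cells. Levels were measured by RNA sequencing in BFF116 cells, a culture of bovine fetal fibroblasts used as nuclear donors for somatic cell cloning. The set holds 10 genes out of 31903 in the count table: ACTA2 (smooth muscle actin), MYL9 (a regulatory light chain of myosin), TAGLN (transgelin), CNN1 and CNN2 (calponins), CALD1 (caldesmon) and the tropomyosins TPM1, TPM2, TPM3 and TPM4. The members were named by symbol, and they were chosen from measured values, because their levels had been seen to vary over the very 3 libraries described. Level, spread and direction over the replicates are therefore a description without a test, and they give no independent evidence that these genes vary more than others. All 10 had 10 or more reads in every library, as did 10434 genes in all.

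The series has 1 group of 3 biological replicates, each a library from total RNA of BFF116 cells starved of serum for 48 h. No unstarved cells, other lines or treatments are compared, and nothing in the labels ties each replicate to its own culture or animal, so part of the differences between libraries may be technical. BFF116 is described only as a donor culture of fetal fibroblasts, and no transgene or genotype is given. Frozen cells were lysed and their cDNA was amplified isothermally from a single primer before the libraries were made.

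In smooth muscle, actin filaments slide against myosin once the regulatory light chain has been phosphorylated. Tropomyosins lie along the actin filament and, with calponin and caldesmon, regulate its contact with myosin, while transgelin binds and stabilises actin filaments. Cultured fibroblasts build stress fibres from the same kind of parts, and ACTA2, TAGLN and CNN1 are widely used marks of their contractile state, the myofibroblast. Many of these genes are known targets of serum response factor (SRF) and its actin-sensing coactivators.

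The gene counts summed to 8608350, 4842331 and 7122651 reads in replicates 1, 2 and 3. Levels are CPM, gene counts per 1000000, scaled to these totals with factors of 0.978, 1.02 and 0.998, and are not corrected for transcript length, so levels of different genes are not compared. Where genes of a list are named as those with the most reads, and where CPM are summed over a list, this refers to reads and not to amounts of transcript. Over all 10434 genes the libraries differed with a common biological coefficient of variation of 0.273. With genes filtered anew on the remaining libraries, it was 0.200 without replicate 1 (10637 genes), 0.336 without replicate 2 (11041 genes) and 0.25 without replicate 3 (10665 genes). Replicate 1 thus stood farthest from the others, and results are also given without it. Fibroblast markers were plentiful, with all 17 listed genes at or above 1 CPM throughout, among them COL3A1 at 33910, 30399.7 and 32408 CPM and FN1 (fibronectin) at 11737, 11381 and 11549.8 CPM.

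The contractile genes together held 124204, 75813 and 142116 reads, which is 1.44%, 1.57% and 2.00% of the gene counts in replicates 1, 2 and 3 (mean 1.67% ± 0.290, SD, n = 3). Their summed level was 14753, 15277 and 19997 CPM. Most of these reads were of ACTA2, TPM1, TPM2, TPM4 and CALD1, so the sum says little of the other members.

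ACTA2, the actin isoform of vascular smooth muscle, was among the steadiest members. It had 33880, 18107 and 31381 reads, or 4024, 3649 and 4416 CPM in replicates 1, 2 and 3 (mean 4029.6 ± 383, SD, n = 3). Its highest library, replicate 3, stood 1.21-fold above its lowest, replicate 2 (95% interval 1.19 to 1.23, exact binomial). This and the other intervals between libraries take in counting error alone and leave out all other differences between libraries. Copies made by PCR were not told apart by molecular identifiers, so even the counting part may be too narrow. In replicates 1 and 3 the level differed by 1.1-fold.

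MYL9, whose protein is the light chain that myosin light chain kinase phosphorylates, was low in replicate 1 alone. It had 1354, 1344 and 1976 reads, giving 161, 271 and 278 CPM (mean 237 ± 65.7, SD, n = 3). Replicates 2 and 3 were alike, with a ratio of replicate 3 over 2 of 1.03 (0.957 to 1.1), and replicate 3 exceeded replicate 1 by 1.73-fold (1.61 to 1.85). The order of replicates 2 and 3 turned, from a log2 ratio of 0.038 to -0.00066, when library totals replaced the scaling factors.

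TAGLN, a calponin-related actin-binding protein and an early mark of the smooth muscle lineage, had 1554, 1993 and 2644 reads. Its level was 185, 402 and 372 CPM (mean 319 ± 118, SD, n = 3). Replicate 2 was 2.18-fold above replicate 1 (2.04 to 2.33), and with these scaling factors TAGLN was the only one of the 10 members whose highest library was not replicate 3. Replicate 3 stood at 0.926 times replicate 2 (0.874 to 0.982).

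CNN1, the calponin typical of differentiated smooth muscle, had the widest spread of the members. It had 340, 339 and 671 reads, or 40.4, 68.3 and 94.4 CPM (mean 67.7 ± 27.0, SD, n = 3), with replicate 2 between the others. Replicate 3 was 2.34-fold above replicate 1 (2.05 to 2.67). Replicate 3 over replicate 2 was 1.38 (1.21 to 1.58).

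CNN2, the calponin of non-muscle cells, had 353, 345 and 567 reads, or 41.9, 69.5 and 79.8 CPM (mean 63.7 ± 19.6, SD, n = 3). Replicate 3 was 1.90-fold above replicate 1 (1.66 to 2.18) and 1.15-fold above replicate 2 (1.00 to 1.32). CNN1 and CNN2 were both lowest in replicate 1 and highest in replicate 3. The third family member, CNN3, which was not among the 10, had 351, 315 and 313 CPM, with replicate 1 the highest and a spread of 1.12-fold.

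CALD1, caldesmon, which binds actin and tropomyosin and holds back myosin, had 12142, 7169 and 13654 reads. It stood at 1442, 1445 and 1921 CPM (mean 1603 ± 276, SD, n = 3), level in replicates 1 and 2 and higher in replicate 3. Replicate 3 over replicate 1 was 1.33 (1.30 to 1.37), and replicate 2 over replicate 1 was 1.00 (0.973 to 1.03).

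Among the tropomyosins, TPM1, TPM2 and TPM3 all spread more widely than TPM4. TPM1 and TPM2 supply muscle isoforms as well as cytoskeletal ones. TPM1 had 26488, 17415 and 37420 reads, or 3146, 3509 and 5265 CPM (mean 3974 ± 1133, SD, n = 3). Replicate 3 stood above both other libraries, 1.67-fold above replicate 1 (1.65 to 1.70) and 1.5-fold above replicate 2 (1.47 to 1.53).

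TPM2 had 15374, 12609 and 24043 reads, or 1826, 2541 and 3383 CPM (mean 2583 ± 779, SD, n = 3). Its ratio of replicate 3 over replicate 1 was 1.85 (1.82 to 1.89), with replicate 2 between them. TPM1 and TPM2 differ in that replicate 2 lay near replicate 1 for TPM1 and about midway for TPM2.

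TPM4, a cytoskeletal tropomyosin of non-muscle cells, had 32365, 16172 and 29231 reads, or 3844, 3259 and 4113 CPM (mean 3739 ± 437, SD, n = 3). Like ACTA2 it was lowest in replicate 2, and its highest library was 1.26-fold above that (1.24 to 1.29). TPM3, which supplies slow-muscle and cytoskeletal isoforms, had 354, 320 and 529 reads, or 42.0, 64.5 and 74.4 CPM (mean 60.3 ± 16.6, SD, n = 3). It was lowest in replicate 1, with replicate 3 higher by 1.77-fold (1.54 to 2.03).

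**Figure D1:**
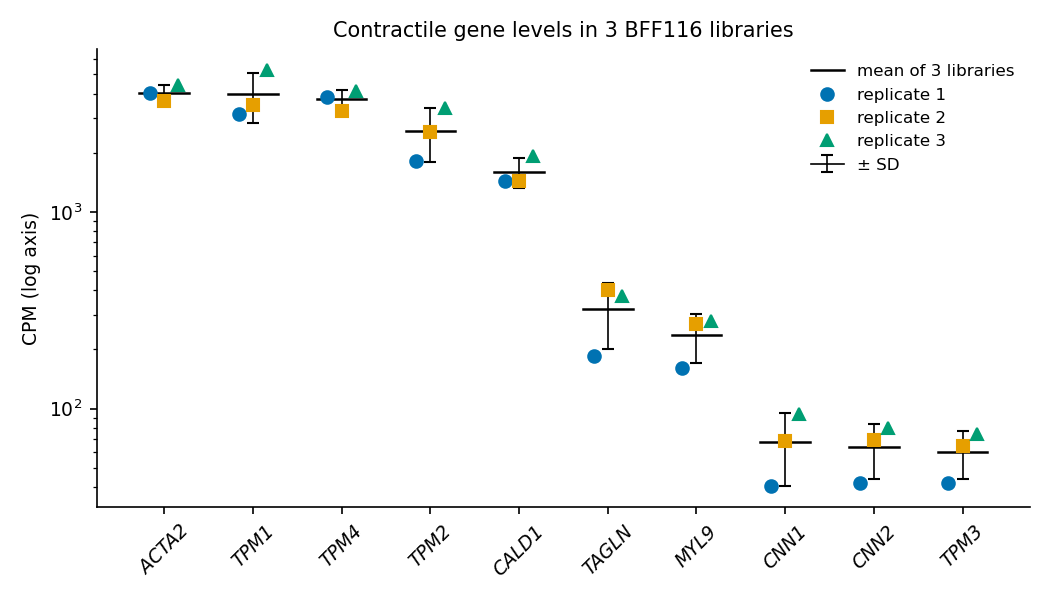
CPM of the 10 contractile genes (log axis) in replicate 1 (circles), 2 (squares) and 3 (triangles), with the mean (bar) and SD (whiskers) of 3 libraries; CPM is not corrected for length, so heights of different genes are not comparable. Replicate 1 is lowest for 8 genes (7 with DESeq2 size factors, CALD1 being nearly level in replicates 1 and 2) and replicate 2 for ACTA2 and TPM4, and TAGLN is the gene whose highest point is replicate 2.

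The genes fall on a range from ACTA2, with a coefficient of variation of 9.51% over the libraries, and TPM4 with 11.7%, through CALD1 with 17.2%, to TAGLN with 36.8% and CNN1 with 39.9%. Counting error alone would give 0.623% for ACTA2, 2.25% for TAGLN, 4.96% for CNN1 and at most 5.11% (TPM3) among the members. These values describe genes picked for their spread, and the counting part leaves out the ordinary differences between libraries.

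Of the 10 members, 7 had a highest library at least 1.5-fold above their lowest, a rule that 53.6% of the 10434 genes also met. TPM1 at 1.67-fold was the closest above this limit and CALD1 at 1.33-fold the closest below. The median spread was 1.75-fold for the members and 1.54-fold for all these genes. Spread differed with level. Among the 1381 genes that reached 100 CPM in each library, 21.7% met the 1.5-fold rule, with a median spread of 1.27-fold. The members at this level were 7, and 4 of them met it (MYL9, TAGLN, TPM1 and TPM2), with a median of 1.67-fold. A 2-fold spread was reached by TAGLN and CNN1, 2 of 10, and by 24.6% of all 10434 genes. Since the members were picked for their spread, nothing is read from these shares.

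**Figure D2:**
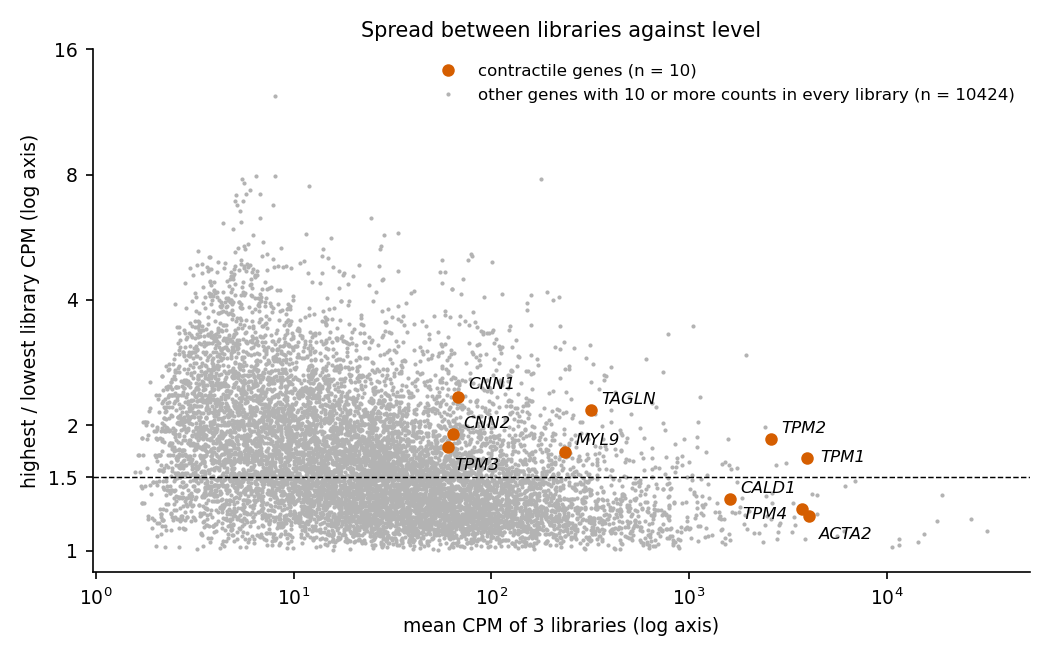
Highest over lowest library CPM against mean CPM (both log axes) for the 10 contractile genes (orange, named) and the other genes (grey), limited to a minimum of 10 reads per library; the dashed line marks 1.5-fold. TPM1, TPM2, TAGLN and MYL9 lie above the line at levels where most genes lie below it, and ACTA2, TPM4 and CALD1 lie below it.

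The direction was shared by most members. Replicate 3 was the highest library for 9 of 10 (8 with library totals, where MYL9 turned), against 36.3% of the 10434 genes. Replicate 1 was the lowest for 8 of 10 (7 with DESeq2 size factors, where CALD1 turned), against 40.3%. Lowest in replicate 1 and highest in replicate 3 held for 7 of 10 (6 with either of these scalings), against 25.9%. Replicate 3 exceeded replicate 1 by 1.5-fold or more in 7 members, against 21.2% of all genes, and the opposite held for 0 members, against 20.4%. The median log2 ratio of replicate 3 over replicate 1 was 0.81 for the members, 0.012 for the 10434 genes and -0.076 for those at 100 CPM or more. The direction belongs to what chose the members, and these counts are descriptive too.

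Without replicate 1 the spread was narrower, and a range over fewer libraries can never be wider. With scaling factors estimated anew from replicates 2 and 3 alone, 0 of 10 members were 1.5-fold apart, against 22.5% of the 10637 genes with 10 or more reads in both. TPM1 lay at the limit itself, at 1.499-fold with these factors and 1.5004-fold with the factors of all 3 libraries, so that the count was 1 with the factors of all 3. With the new factors CNN1 had 1.38-fold, TPM2 1.33-fold, CALD1 1.33-fold and MYL9 1.03-fold. The median was 1.24-fold for the members and 1.22-fold for all these genes. MYL9 and TAGLN had near levels in replicates 2 and 3, while TPM1 and CALD1 had near levels in replicates 1 and 2.

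**Figure D3:**
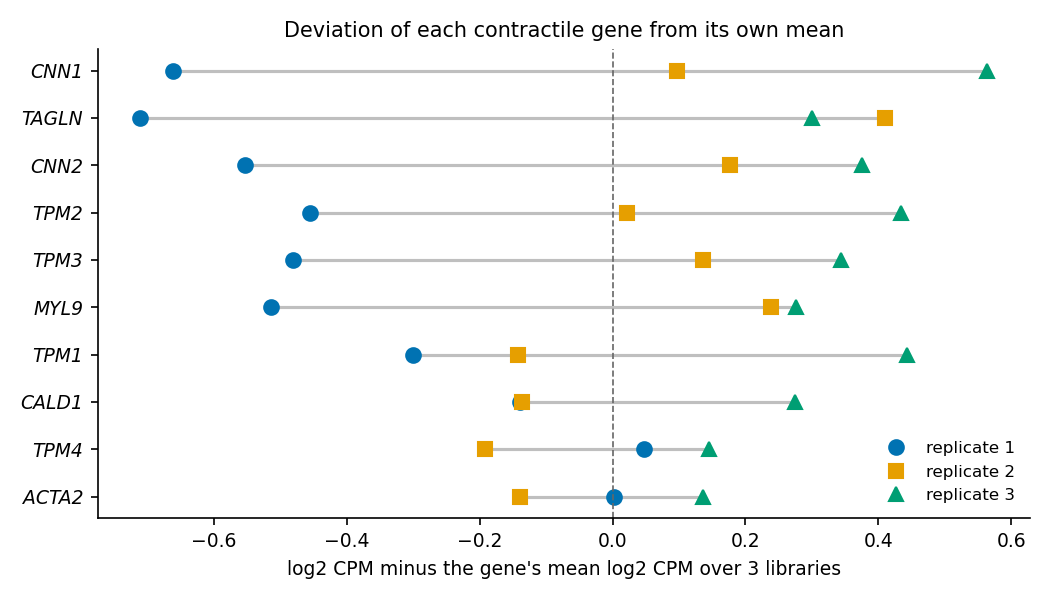
Log2 CPM of each contractile gene in each library minus that gene's mean over 3 libraries, with genes ordered by spread from CNN1 (2.34-fold) at the top to ACTA2 (1.21-fold). Replicate 1 lies far left for the upper 6 genes, replicates 1 and 2 coincide for CALD1, and replicate 2 is leftmost for TPM4 and ACTA2.

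Ratios of 2 members within the same library do not depend on scaling, and their change between libraries does not depend on gene length. Over the 45 pairs of members the SD of the log2 ratio (pseudocount 0.5 CPM) ran from 0.049 to 0.69 with a median of 0.30. The steadiest pair was ACTA2 with TPM4, whose log2 ratio was 0.066, 0.16 and 0.10 in replicates 1, 2 and 3. CNN2 with TPM3 (SD 0.062), MYL9 with CNN2 (SD 0.085) and MYL9 with TPM3 (SD 0.090) were next. The least steady was TAGLN over TPM4, at -4.38, -3.02 and -3.46 (SD 0.69), followed by TAGLN over ACTA2, at -4.44, -3.18 and -3.57 (SD 0.65).

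Several genes of one family did not keep their proportions. The log2 ratio of TPM1 over TPM4 was -0.29, 0.11 and 0.36 in replicates 1, 2 and 3, that of TPM2 over TPM4 was -1.07, -0.36 and -0.28, and that of TPM1 over TPM2 was 0.78, 0.47 and 0.64. Of the reads of all 4 tropomyosins, TPM4 held 43.4%, 34.8% and 32.0%, TPM1 held 35.5%, 37.4% and 41.0%, TPM2 held 20.6%, 27.1% and 26.4%, and TPM3 held 0.475%, 0.688% and 0.58%. These are shares of reads and not of transcripts. The calponins kept closer to each other, with a log2 ratio of CNN1 over CNN2 of -0.053, -0.025 and 0.24. CNN1 over ACTA2, a pair of muscle-type markers, changed more, at -6.62, -5.73 and -5.54.

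**Figure D4:**
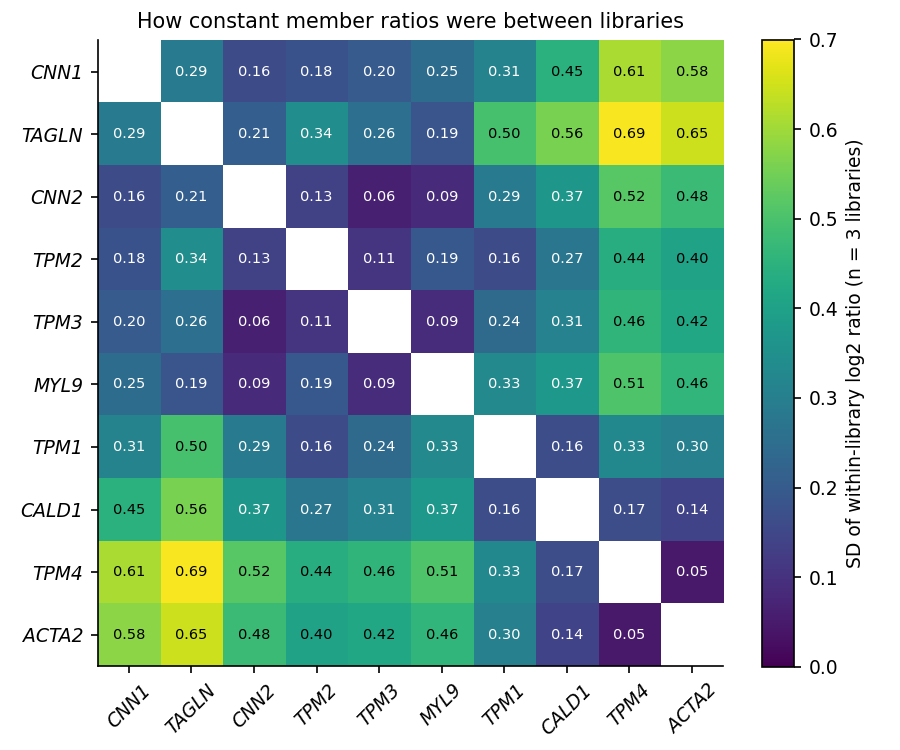
SD over 3 libraries of the within-library log2 ratio for each pair of contractile genes, with genes ordered by spread; dark cells are pairs that kept their ratio. ACTA2 with TPM4 (0.05) and the block of CNN2, TPM2, TPM3 and MYL9 (0.06 to 0.19) are dark, and TAGLN with TPM4 (0.69) is the brightest cell.

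Whether the culture held smooth muscle was checked with markers of the mature cell other than the members. Of 14 such genes in the table, 7 had 10 or more reads in every library and 3 had 0 reads in all of them: DES (desmin), KCNMB1 (a channel subunit) and MYOCD, the coactivator that drives the smooth muscle programme. For these 0 reads allow up to 0.605 CPM in the shallowest library, if reads could be assigned to them. MYH11, the smooth muscle myosin heavy chain, had 41, 2 and 7 reads, so that it was highest in the library where TAGLN and CNN1 were lowest. The whole list summed to 718, 667 and 812 CPM. Those with the most reads were ACTG2 (enteric smooth muscle actin) at 454, 379 and 422 CPM, HSPB6 (a small heat shock protein of muscle) at 93.7, 156 and 230 CPM, ITGA8 (an integrin chain) at 87.7, 68.5 and 74.3 CPM and SYNPO2 (an actin-bundling protein) at 53.3, 44.7 and 55.2 CPM. HSPB6 thus had the order seen in CNN1, with a spread of 2.45-fold, and ACTG2 that of ACTA2 only in being lowest in replicate 2. SYNM (2.97, 4.84 and 6.05 CPM) also had the order of CNN1. SMTN (9.50, 6.65 and 16.2 CPM) was lowest in replicate 2, and PLN (6.18, 3.43 and 5.07 CPM) was highest in replicate 1. Of the 7 genes 4 spread 1.5-fold or more, against 53.6% of all 10434 genes. By that much 3 were higher in replicate 3 than in replicate 1 (21.2% of all genes) and 0 lower (20.4%), with a median log2 ratio of 0.049. In bulk RNA, fewer cells with a transcript and less of it per cell cannot be told apart.

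Of 11 markers of pericytes, the contractile cells of small vessels, 3 had 10 or more reads in every library and 4 had 0. Both shares lie near those of the whole table, so they do not set this list apart. ANPEP (40.9, 46.5 and 54.0 CPM), PDGFRB (38.1, 51.4 and 67.4 CPM) and CSPG4 (7.48, 11.9 and 14.9 CPM) are also expressed by fibroblasts. Each was lowest in replicate 1, as were 40.3% of the 10434 genes. NOTCH3 had 10, 6 and 66 reads. The list summed to 87.9, 112 and 148 CPM in replicates 1, 2 and 3, the order of most contractile genes, and its part in their spread was not tested.

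Striated muscle genes, which include sarcomeric actins, troponins and myosins, had 1 of 22 members at 10 or more reads in every library, TTN (titin) at 9.15, 5.04 and 8.72 CPM. ACTC1, cardiac actin, had 21, 2 and 4 reads, MYF5 had 4, 8 and 8 and TNNT3 had 2, 3 and 5, while 12 members had 0. The list summed to 13.4, 10.1 and 12.0 CPM. Endothelial genes summed to 19.1, 9.47 and 27.3 CPM with 5 of 9 at 0 reads, and those with the most reads were ERG (6.89, 3.83 and 18.3 CPM), TEK (7.72, 3.02 and 7.04 CPM), PECAM1 (4.51, 2.02 and 1.41 CPM) and VWF (0, 3 and 4 reads). Epithelial genes summed to 2.14, 4.84 and 4.64 CPM, led by KRT19, KRT8, CDH1 and ESRP1 with at most 9 reads in any library. Leukocyte genes summed to 11.2, 4.23 and 11.1 CPM, led by CD68, LYZ, FCER1G and CSF1R.

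The cytoskeleton around the members was described with 6 further lists, leaving the members out. Their counts are set against the 10434 genes, of which 53.6% spread 1.5-fold or more and 40.3% were lowest in replicate 1. By 1.5-fold or more, 21.2% were higher in replicate 3 than in replicate 1 and 20.4% in replicate 1 than in replicate 3. These shares are not matched for level. Among the 1381 genes at 100 CPM or more in each library, 21.7% spread 1.5-fold or more. Where a list stands beside genes of like level was not tested. Of the non-muscle actin and myosin genes 1 of 8 spread 1.5-fold or more, and their median log2 ratio of replicate 3 over replicate 1 was 0.41. ACTB stood at 4865, 6736 and 6963 CPM, ACTG1 at 2991, 3601 and 3578 CPM and the myosin heavy chain MYH10 at 895, 1031 and 1235 CPM, each lowest in replicate 1. The light chain MYL12A, a close relative of MYL9, was highest there, with 1534, 1470 and 1242 CPM. MYH9, the other non-muscle heavy chain, was the gene past 1.5-fold, at 352, 499 and 586 CPM.

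Stress fibre and adhesion genes had 12 of 30 at 1.5-fold or more and a median log2 ratio of replicate 3 over replicate 1 of 0.38, with 10 higher in replicate 3 by 1.5-fold and 1 higher in replicate 1. The share past 1.5-fold was below that of the 10434 genes, which were not matched for level. The widest were TLN2 (talin 2) at 5.23, 9.67 and 16.6 CPM, SYNPO (synaptopodin) at 7.13, 13.9 and 18.4 CPM and TGFB1I1, an adhesion protein also called HIC-5, at 53.8, 104 and 133 CPM. PDLIM4 (11.0, 25.8 and 23.1 CPM) and PDLIM2 (15.0, 23.4 and 30.1 CPM), which carry PDZ and LIM domains, also passed 2-fold. Of the genes with the most reads, VCL (vinculin) had 1011, 1019 and 1230 CPM and PARVA (parvin) 503, 508 and 594 CPM, while PDLIM5 had 446, 371 and 366 CPM and FERMT2 (kindlin 2) 1861, 1391 and 1152 CPM, highest in replicate 1.

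Of the other actin-binding genes 16 of 30 spread 1.5-fold or more, a share near that of all genes. By that much 9 were higher in replicate 3, a share above the 21.2% of all genes, and 6 were higher in replicate 1, near the 20.4% of all genes. FLNA (filamin A, 634, 914 and 1059 CPM), TMSB10 (a thymosin, 1059.9, 1700.2 and 1965 CPM) and CFL1 (cofilin 1, 56.3, 88.1 and 125 CPM) were lowest in replicate 1, as were CORO1B (4.99, 10.1 and 10.4 CPM) and TMOD2 (2.85, 3.22 and 5.77 CPM). The muscle-type cofilin CFL2 (231, 74.8 and 74.7 CPM), the capping protein subunits CAPZA1 (373, 237 and 134 CPM) and CAPZA2 (192, 61.9 and 74.3 CPM), the profilin PFN2 (148, 75.6 and 61.1 CPM) and the plastins PLS3 (1459, 1138 and 717 CPM) and PLS1 (11.2, 5.04 and 5.35 CPM) were highest in replicate 1. TMSB4X had 3745, 3296 and 3248 CPM.

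Of the genes that switch myosin on and off 10 of 16 spread 1.5-fold or more, 5 higher in replicate 3 and 5 higher in replicate 1, with a median log2 ratio of -0.048. Calls in both directions were also the rule among all genes. The kinases ROCK1 (485, 248 and 167 CPM) and ROCK2 (1171, 617 and 436 CPM), which keep the light chain phosphorylated, were highest in replicate 1, where MYL9 was lowest. The same held for PPP1CB, the catalytic subunit of myosin phosphatase, at 466, 303 and 183 CPM, and for RND3, which opposes ROCK1, at 628, 369.8 and 262 CPM. RHOA, the GTPase that activates both kinases, was steady at 807, 828 and 842 CPM, and MYLK, the kinase of the light chain, had 19.8, 25.8 and 33.2 CPM.

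Of SRF and its partners 3 of 16 spread 1.5-fold or more, a share below that of all genes. By that much 1 was higher in replicate 3 than in replicate 1 and 1 was lower, and the median log2 ratio was 0.080. SRF itself had 16.5, 21.0 and 22.1 CPM, and its coactivators had 20.2, 22.0 and 28.6 CPM (MKL1) and 32.1, 34.5 and 39.0 CPM (MKL2). Each was lowest in replicate 1, as were 40.3% of the 10434 genes. The genes of the list with the most reads were PRRX1 (698, 744 and 944 CPM), TEAD1 (556, 436 and 456 CPM), MEF2A (236, 184 and 187 CPM) and KLF4 (102, 85.2 and 110 CPM). Of these, TEAD1 and MEF2A were highest in replicate 1. SCAI, a corepressor of the MKL proteins, had 14.5, 17.9 and 7.88 CPM, and TEAD4 had 3.56, 7.46 and 6.89 CPM.

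Of the genes of TGF-beta signalling and the myofibroblast state 6 of 21 spread 1.5-fold or more, again a share below that of all genes, and the median log2 ratio was -0.065. The 4 higher in replicate 3 by 1.5-fold or more were the signal transducer SMAD3 (17.2, 24.0 and 33.1 CPM), its inhibitory relative SMAD7 (2.26, 2.02 and 3.94 CPM) and the integrin chains ITGB5 (145, 205 and 233 CPM) and ITGA11 (54.5, 70.9 and 83.3 CPM). The 2 higher in replicate 1 were the receptor TGFBR1 (62.8, 58.0 and 40.9 CPM) and LTBP1, which binds latent TGF-beta (63.8, 51.0 and 40.2 CPM). COL1A1 (17005, 17004 and 23176 CPM) and TNC (tenascin C, 3834, 4330 and 5230 CPM) were highest in replicate 3 without reaching that limit. COL3A1 (33910, 30399.7 and 32408 CPM) and FN1 (11737, 11381 and 11549.8 CPM), of the same list, were highest in replicate 1, also short of it. The ligand TGFB1 was at 5.11, 4.84 and 4.92 CPM.

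**Figure D5:**
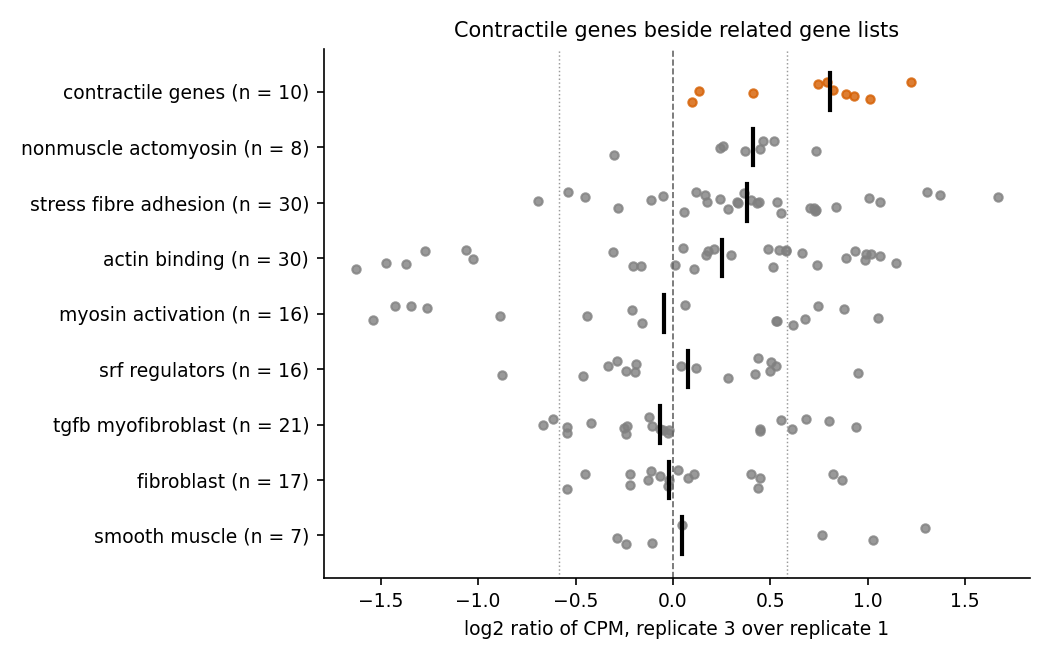
Log2 ratio of CPM in replicate 3 over replicate 1 for the contractile genes (orange, top) and for genes of 8 related lists without the members (grey), limited to genes with a minimum of 10 reads per library; black bars are medians and dotted lines mark 1.5-fold. The contractile genes all lie right of 0 (median 0.81), and the actin-binding and myosin activation genes spread to both sides.

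The genes most like the members over the 3 libraries were sought among 1374 others that reached 100 CPM throughout. The measure was the Euclidean distance between centred log2 profiles, which rests on 3 points per gene and so separates genes weakly. The mean profile of the members was -0.38, 0.047 and 0.33 in replicates 1, 2 and 3. Nearest to it were PCOLCE, an enhancer of procollagen cleavage (487, 656 and 813 CPM, distance 0.025), PTRF, a caveolar coat protein (261, 343 and 427 CPM, distance 0.026), the calcium-binding S100A11 (680, 948 and 1145 CPM, distance 0.042), the ribosomal RPL13 (272, 363 and 461 CPM, distance 0.048) and the translation factor EIF4G1 (152, 196 and 249.8 CPM, distance 0.050). The median distance over the 1374 genes was 0.58. Nearest to CNN1 were WASF2, an activator of actin branching (134, 223 and 283 CPM, distance 0.11), SEPT9, a septin (distance 0.12), QSOX1 (distance 0.13), RBP4 (distance 0.13) and MYADM (distance 0.14).

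Some levels are uncertain in themselves. Reads with several alignments made up 7.93%, 7.52% and 7.99% of counted reads and are outside the gene counts, so the levels of the actins and tropomyosins, which have near-identical relatives, may be too low to an extent that was not tested. In the RefSeq annotation of the ARS-UCD2.0 assembly TPM3 overlaps UBAP2L and NUP210L, which had 2467, 1512 and 2434 reads and 78, 29 and 52 reads. Reads of these genes and of TPM3 may not be fully separated, since the strand setting is not given. The other 9 members overlap no gene there. TPM1 has 29 RefSeq transcripts, TPM3 18 and CALD1 16, and counts per gene do not separate muscle from cytoskeletal isoforms.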

How the data were processed

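RNA of 3 BFF116 libraries was analysed from 1 table. Per the labels, cDNA was amplified with the NuGEN Ovation kit. HTSeq 0.6.1, TopHat2 2.0.10 and bcl2fastq 2.18.0.12 are named in the submitters' processing notes. The sources used here do not give build, annotation, counting mode or strand setting. The deposited values are whole-number read counts per gene symbol, not normalized. Summary rows that name no gene (reads in no gene were 59.2%, 58.9% and 62.0%) were left out of library sizes.

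CPM used TMM factors from edgeR 4.0.16 in R 4.3.3, and the biological coefficient of variation came from its dispersion estimate on genes with at least 10 counts in each library. Spread is the highest over the lowest library, called at 1.5-fold. Exact binomial 95% intervals compare 2 libraries. With 1 group no test was made. Members and lists were chosen with earlier results of these data known. Named genes were all members, the 4 highest of each list (not all of them for fibroblasts), genes past 2-fold in 4 of the lists (actomyosin, actin-binding, adhesion, SRF) and the 5 nearest profiles. CNN3, MYH9, MYLK, ROCK1, SRF, MKL1, MKL2, SMAD3, SMAD7, ITGB5, ITGA11, TGFBR1, LTBP1, TGFB1, DES, KCNMB1, MYOCD, MYH11, SYNM, SMTN and PLN were added after their values were seen. Alternatives were DESeq2 1.42.0 size factors, library totals with and without the 100 highest genes, upper-quartile factors, other thresholds and pseudocounts, and leaving out each replicate. 1 gene of the myofibroblast list is not reported here. No sequence of the members was used here.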

Additional observations from a re-analysis of the deposited data

How the results depend on the processing

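The number of members with a spread of 1.5-fold or more was 7 with the DESeq2, library-total, upper-quartile and top-gene-free scalings and without the count filter. It was 2 at a 2-fold limit and 4 among genes at 100 CPM or more, which both admit fewer genes by construction. Leaving out 1 replicate, with factors estimated anew, gave 0 to 7: 0 without replicate 1 (TPM1 at 1.499-fold, and 1.5004-fold with the factors of all 3), 7 without replicate 2 and 5 without replicate 3. Members highest in replicate 3 numbered 9, or 8 with library totals, where MYL9 changed. The upper-quartile and top-gene-free scalings of this count were added after seeing the data. The common coefficient of variation was 0.310 with 1 or more counts in every library, and 0.200 to 0.336 leaving out 1 replicate. No mean level of a member moved beyond its SD in 30 recomputations without a replicate and 40 with another scaling. That outcome was all but fixed beforehand and says nothing of robustness. Dropping 1 of 3 values shifts a mean by less than the SD, and all scalings were brought to a common overall scale. No library ratio past 1.5-fold changed sign. Of 120 library ratios under other scalings 30 left the counting interval, which does not cover scaling. TPM1 replicate 3 over 1 reached a log2 ratio of 0.83 without the 100 highest genes, and TPM1 replicate 3 over 2 fell below 1.5-fold with DESeq2 factors (log2 0.58) and library totals (log2 0.55). A swapped order of nearly equal libraries was seen for MYL9 (replicates 2 and 3, library totals) and CALD1 (replicates 1 and 2, DESeq2 factors, log2 ratio -0.0092 in place of 0.0024). No paired analysis was possible because the series has 1 group. With 3 libraries the spread itself is known only roughly.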
